A study of Mus with 4 samples.

Results

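A set of 7 genes that mark liver-resident natural killer (NK) cells was followed across 4 Affymetrix arrays. Apart from Ckb, which encodes a cytosolic enzyme, the genes encode surface or membrane-associated proteins, or proteins that act beneath surface receptors. The 7 genes are Cd69, Rgs1, Inpp4b, Tmem176a, Tmem176b, Ckb and Gpr183. They were taken by name from the signature, each through the array row that names that gene and no other, and all 7 had such a row and passed the filter on low values, among 16245 genes tested. The cells were liver NK cells sorted as negative for DX5, an antibody to the integrin alpha 2 chain that circulating NK cells carry. One group of 2 arrays came from WT mice. The other group of 2 came from dnTGFbRII mice, which express a dominant-negative TGF-beta receptor II, and the labels do not give the promoter that drives it. All mice were female C57BL/6 animals of 6 to 8 weeks, with no treatment named. The labels do not tie any array to a mouse, a pool of mice or a sort, so p-values and errors cover the spread between these arrays alone, and that spread may be technical.

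CD69 is a C-type lectin that binds the sphingosine 1-phosphate receptor S1PR1 in the membrane and takes it inside the cell, which keeps lymphocytes from leaving a tissue. RGS1 shortens signalling from chemokine receptors by speeding up GTP hydrolysis in the G protein, and GPR183 is a receptor that guides immune cells along gradients of oxysterols. INPP4B removes a phosphate from a membrane phosphoinositide downstream of PI 3-kinase, TMEM176A and TMEM176B are related four-span membrane proteins, and CKB is the cytosolic brain-type creatine kinase that buffers ATP. TGF-beta is known to favour tissue residency in lymphocytes, and the comparison of genotypes asks how DX5-negative NK cells differ when the animals carry a dominant-negative receptor.

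All 7 genes had a lower mean in dnTGFbRII than in WT cells, but none of the differences was larger than the test could separate from the spread between arrays. The largest was that of Cd69, 1.60-fold lower, followed by Tmem176b (1.33-fold), Tmem176a (1.26-fold) and Rgs1 (1.23-fold). On the log2 scale the median of the 7 differences, dnTGFbRII minus WT, was -0.29, against a median of -0.01 over all genes tested, of which 52.6% had a negative difference. For 4 of the 7 genes both dnTGFbRII arrays lay below both WT arrays, as was so for 14.5% of all genes tested. By limma with Benjamini-Hochberg adjustment over all genes, 0 of 7 passed an adjusted p of 0.05, as did 0% of all genes tested, and every one of the 7 had an adjusted p of 0.9998. At an unadjusted p under 0.05 the count was also 0 of 7, where 1.29% of all genes were lower and 1.95% higher in dnTGFbRII cells. With 2 arrays in each genotype, the smallest p that exact permutation could give, 2-sided, is 0.333.

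**Figure D1:**
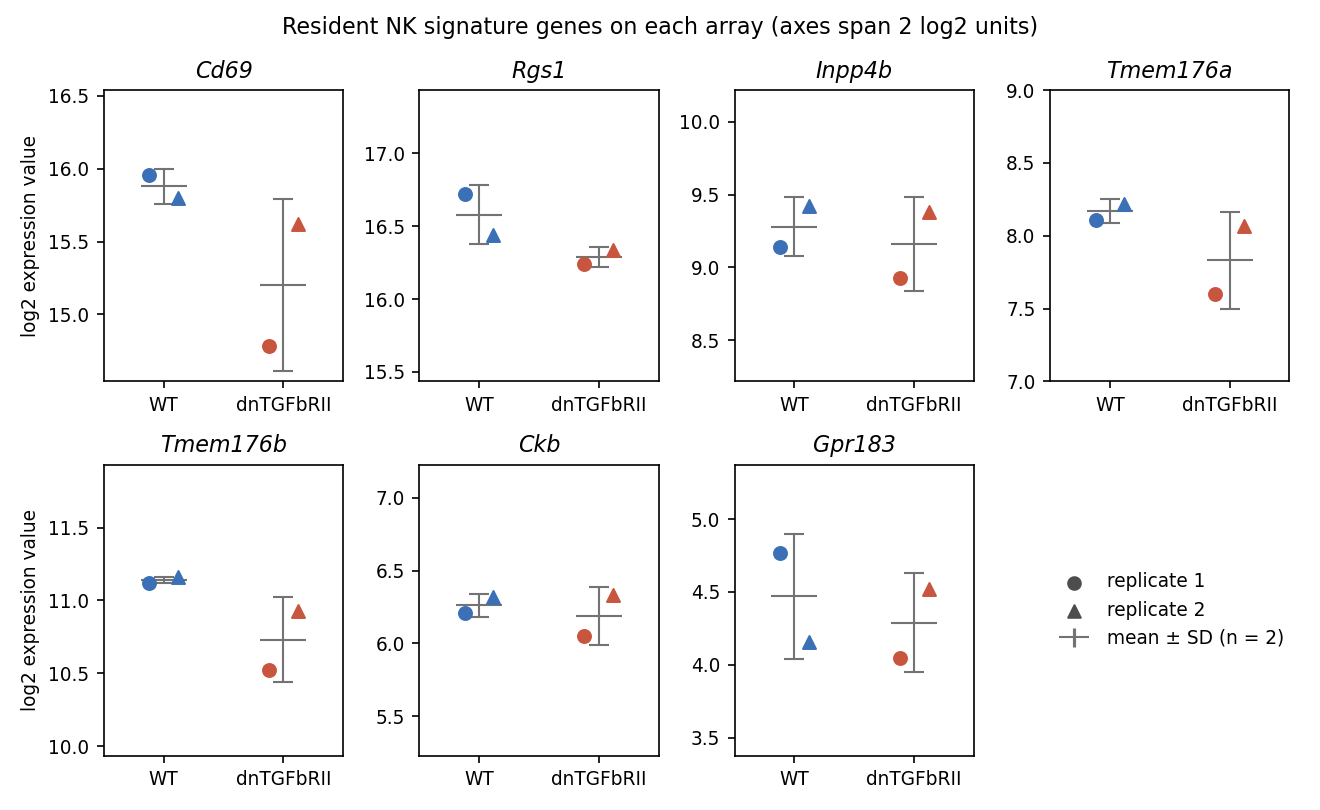
Log2 expression value of each gene on the 4 arrays, with circles for replicate 1, triangles for replicate 2, and bars for the mean ± SD of 2 arrays; each axis spans 2 log2 units. The dnTGFbRII points of Cd69, Rgs1, Tmem176a and Tmem176b lie below both WT points, and those of Inpp4b, Ckb and Gpr183 do not.

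Array medians over all rows lay between 4.20 and 4.26 on the log2 scale. The 23 rows of antigenomic background probes, which match no mouse sequence, spanned 2.13 to 6.21 depending on their GC content. Their medians were 2.94 to 3.11 on the 4 arrays. On every array Gpr183 lay within the span of these rows, so its values may not stand above background. It was not compared with background probes of its own GC content. The other 6 genes lay above the highest of these rows on every array. Of the 8 NK cell markers, among them Ncr1 and Klrb1c, all were tested and their mean was 15.51 and 15.75 on the WT arrays and 15.40 and 15.74 on the dnTGFbRII arrays. The 3 NK markers with the largest test statistics, Klrk1 (-0.11 ± 0.16), Prf1 (-0.20 ± 0.40) and Fcer1g (-0.09 ± 0.14), overlapped between the genotypes. Markers of other cells are given further on. In such sorted bulk samples, fewer cells of a type and less RNA per cell cannot be told apart.

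Cd69 measured 15.96 and 15.80 on WT replicates 1 and 2, and 14.78 and 15.62 on dnTGFbRII replicates 1 and 2. Both dnTGFbRII arrays were below both WT arrays, yet the dnTGFbRII arrays stood 0.84 apart, more than the difference between the genotype means. That difference was -0.68 ± 0.31 (SE of the limma fit), with a 95% confidence interval from -1.50 to 0.13. Only 0.72% of all genes tested had a more negative difference. The size rested on dnTGFbRII replicate 1: without it the difference was -0.26, and without dnTGFbRII replicate 2 it was -1.10 (limma adjusted p = 0.348).

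The sphingosine 1-phosphate pathway around CD69 was listed with 14 genes, of which 12 were tested. They hold the receptors, the transcription factor Klf2 that drives S1pr1, the G protein and exchange factor through which the receptors signal, and the enzymes and transporters of the lipid. None of the 12 was called at an unadjusted p under 0.05 in either direction, 5 were lower and 7 higher, and the median difference was 0.06. S1pr1, the receptor that CD69 internalises, measured 4.24 and 4.17 in WT and 4.52 and 4.15 in dnTGFbRII cells, within the span of the background probes, and differed by 0.13 ± 0.17. Klf2 measured 6.70 and 6.56 in WT and 6.32 and 6.91 in dnTGFbRII cells, so its arrays overlapped (-0.02 ± 0.23). S1pr5, the receptor that circulating NK cells use to leave the marrow and lymph nodes, measured 3.84 and 4.27 in WT and 4.66 and 4.48 in dnTGFbRII cells. Its difference of 0.51 ± 0.19 had the largest test statistic of the list, at values near background. S1pr4 (0.12 ± 0.13) and the lipid phosphatase gene Sgpp1 (0.14 ± 0.12) were likewise higher on both dnTGFbRII arrays, which held for 3 of the 12 genes against 12.6% of all genes.

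Rgs1 measured 16.72 and 16.44 in WT and 16.24 and 16.34 in dnTGFbRII cells. The genotypes did not overlap, and the gap between the lower WT array and the higher dnTGFbRII array was 0.103. The difference was -0.29 ± 0.15, with a 95% confidence interval from -0.70 to 0.12. Without WT replicate 1, the highest of the 4 arrays, it was -0.15, and without WT replicate 2 it was -0.44.

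Of the 17 RGS genes listed, 10 were tested and 7, among them Rgs16 and Rgs13, were below the filter on level. Among the 10 tested, 3 were lower and 7 higher, with a median of 0.03. The 3 lower genes were Rgs1, Rgs10 (-0.28 ± 0.14) and Rgs18 (-0.66 ± 0.18), and in each the genotypes did not overlap, where 14.5% of all genes were lower without overlap. Rgs18, a regulator known from platelets and myeloid cells, was the 1 RGS gene of 10 at an unadjusted p under 0.05, against 1.29% of all genes that were lower at that threshold. It measured 11.08 and 11.44 in WT and 10.48 and 10.72 in dnTGFbRII cells (limma adjusted p = 0.9998). Rgs2, next but one to Rgs1 in the same chromosomal cluster, measured 16.13 and 15.78 in WT and 15.98 and 16.03 in dnTGFbRII cells. Its arrays overlapped, with a difference of 0.05 ± 0.17. Rgs18 lies on the other side of Rgs1 in that cluster, again next but one. The other 6 tested genes of the family had differences between 0.01 and 0.10.

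Tmem176b measured 11.12 and 11.16 in WT and 10.52 and 10.93 in dnTGFbRII cells. The WT arrays were 0.03 apart and the dnTGFbRII arrays 0.41 apart, and the genotypes did not overlap. Its difference was -0.41 ± 0.18, with a 95% confidence interval from -0.89 to 0.06. Tmem176a, its neighbour on the chromosome, measured 8.11 and 8.22 in WT and 7.60 and 8.07 in dnTGFbRII cells. The genotypes again did not overlap, by a gap of 0.047, and the difference was -0.33 ± 0.20, with a 95% confidence interval from -0.86 to 0.19. The deviations of the pair from their own means were close on each array. On dnTGFbRII replicate 1 they were -0.40 for Tmem176a and -0.41 for Tmem176b, and on WT replicate 2 both were 0.22. The root mean square distance between the centred profiles was 0.052 log2 units over the 4 arrays. Both differences depended on dnTGFbRII replicate 1, without which they were -0.10 for Tmem176a and -0.21 for Tmem176b.

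The MS4A genes encode four-span membrane proteins related to the TMEM176 pair. With that pair the family list held 17 genes, of which 10 were tested, and none passed an unadjusted p under 0.05. Of the 10, 5 were lower and 5 higher, and the median was -0.01. Ms4a4b, a gene of T and NK cells, measured 10.87 and 11.14 in WT and 11.40 and 11.20 in dnTGFbRII cells, the opposite direction to the TMEM176 pair (0.30 ± 0.16). Ms4a4a differed by 0.45 ± 0.25 with overlapping arrays, and Ms4a6b by -0.04 ± 0.14. The TMEM176 pair were the 2 of 10 whose dnTGFbRII arrays both lay below the WT arrays, against 14.5% of all genes. In 3 of 10, Ms4a4b, Ms4a6d (0.25 ± 0.15) and Ms4a8a (0.17 ± 0.12), both lay above, against 12.6% of all genes. Next to the pair lie the Gimap genes, which encode GTPases of lymphocytes. Gimap3 (-0.12 ± 0.15) and Gimap5 (0.07 ± 0.14) overlapped between the genotypes. Gimap1 measured 8.35 and 8.29 in WT and 8.18 and 8.16 in dnTGFbRII cells, lower without overlap like the pair (-0.15 ± 0.12).

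**Figure D2:**
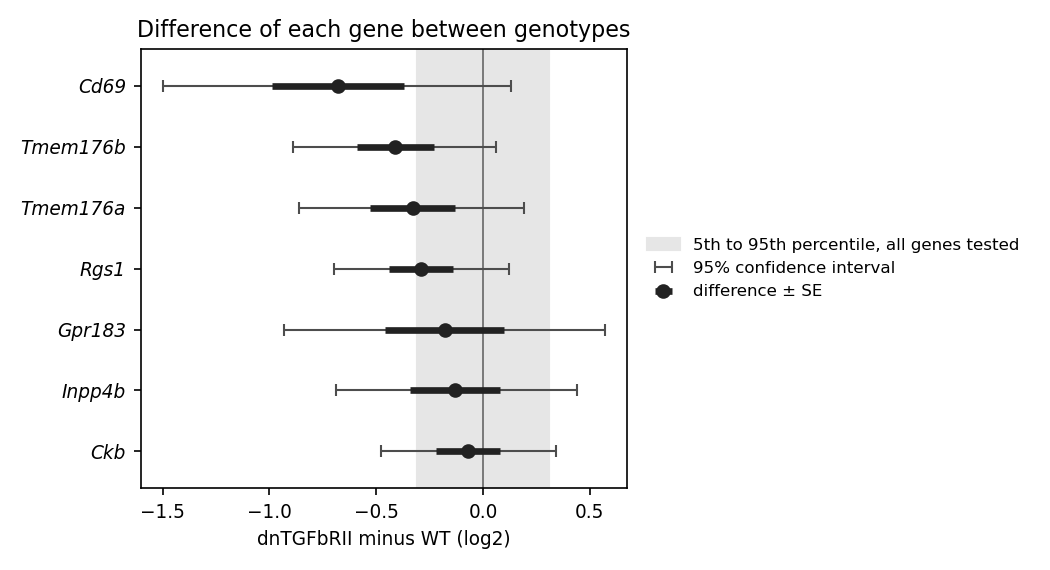
Difference between genotypes for each gene on the log2 scale, with the SE of the limma fit as thick bars and the 95% confidence interval as thin bars; grey marks the 5th to 95th percentile of all genes tested (-0.31 to 0.31). All 7 points are below 0 and all 7 intervals include 0; Cd69, Tmem176b and Tmem176a lie to the left of the grey band.

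Inpp4b measured 9.14 and 9.42 in WT and 8.93 and 9.38 in dnTGFbRII cells. The genotypes overlapped, since dnTGFbRII replicate 2 was above WT replicate 1. The difference was -0.13 ± 0.21, with a 95% confidence interval from -0.69 to 0.44, and it turned to 0.10 without dnTGFbRII replicate 1 and to 0.01 without WT replicate 2. Of 31 listed phosphoinositide kinases, phosphatases and the kinases that act next to them, 28 were tested, 20 of them lower and 8 higher in dnTGFbRII cells. Their median was -0.08, and 13 were lowest on dnTGFbRII replicate 1. Over all genes tested, 52.6% were lower in dnTGFbRII cells and 28.0% were lowest on that array. Phlpp1, a phosphatase that acts on AKT, was the 1 gene of 28 at an unadjusted p under 0.05, near the 1.29% of all genes. It measured 8.11 and 8.06 in WT and 7.82 and 7.69 in dnTGFbRII cells, a difference of -0.34 ± 0.13 with a limma adjusted p of 0.9998. Inpp4a, the closest relative of Inpp4b, measured 10.20 and 10.70 in WT and 9.63 and 10.25 in dnTGFbRII cells. Its arrays overlapped, with a difference of -0.51 ± 0.29. The kinase gene Sgk3 (-0.41 ± 0.21) was lower on both dnTGFbRII arrays. Inpp5d, which encodes the SHIP1 phosphatase, differed by -0.07 ± 0.15, and Pik3cd, the leukocyte catalytic subunit of PI 3-kinase, by -0.09 ± 0.43.

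Ckb measured 6.21 and 6.32 in WT and 6.05 and 6.33 in dnTGFbRII cells. It had the smallest difference of the 7 genes, -0.07 ± 0.15, and its 95% confidence interval ran from -0.48 to 0.34. Of 7 listed genes of the creatine kinase system 4 were tested, none at an unadjusted p under 0.05, with a median of -0.05. Gatm, which makes the creatine precursor, measured 5.08 and 4.31 in WT and 4.11 and 4.13 in dnTGFbRII cells (-0.58 ± 0.28), and the WT arrays were further apart than the genotype means. Gatm, the muscle isoform Ckm (0.19 ± 0.12) and the creatine transporter Slc6a8 (-0.02 ± 0.12) all lay within the span of the background probes.

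Gpr183 measured 4.77 and 4.16 in WT and 4.05 and 4.52 in dnTGFbRII cells. Its mean over the 4 arrays, 4.38, passed the filter of 4.217, which 2 of the single values did not reach. The arrays overlapped, and the difference of -0.18 ± 0.28 had a 95% confidence interval from -0.93 to 0.57. It turned to 0.13 without WT replicate 1 and to 0.06 without dnTGFbRII replicate 1. Of 9 listed genes of the oxysterol pathway 4 were tested, none at an unadjusted p under 0.05, and the median was -0.07. The enzymes that make and break down the GPR183 ligand, Ch25h, Cyp7b1 and Hsd3b7, were below the filter. Cyp27a1, a sterol 27-hydroxylase, measured 5.92 and 4.68 in WT and 4.23 and 4.51 in dnTGFbRII cells (-0.93 ± 0.44), and Cyp39a1, another oxysterol enzyme, differed by 0.18 ± 0.15. Gpr183, Gatm and Cyp27a1 were each highest on WT replicate 1, as were Cd69 and Rgs1. The mean of the dendritic cell markers was also highest on that array, and their part in these values was not tested. Gpr18, a related receptor gene beside Gpr183, measured 8.26 and 7.81 in WT and 8.31 and 8.30 in dnTGFbRII cells (0.27 ± 0.19).

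**Figure D3:**
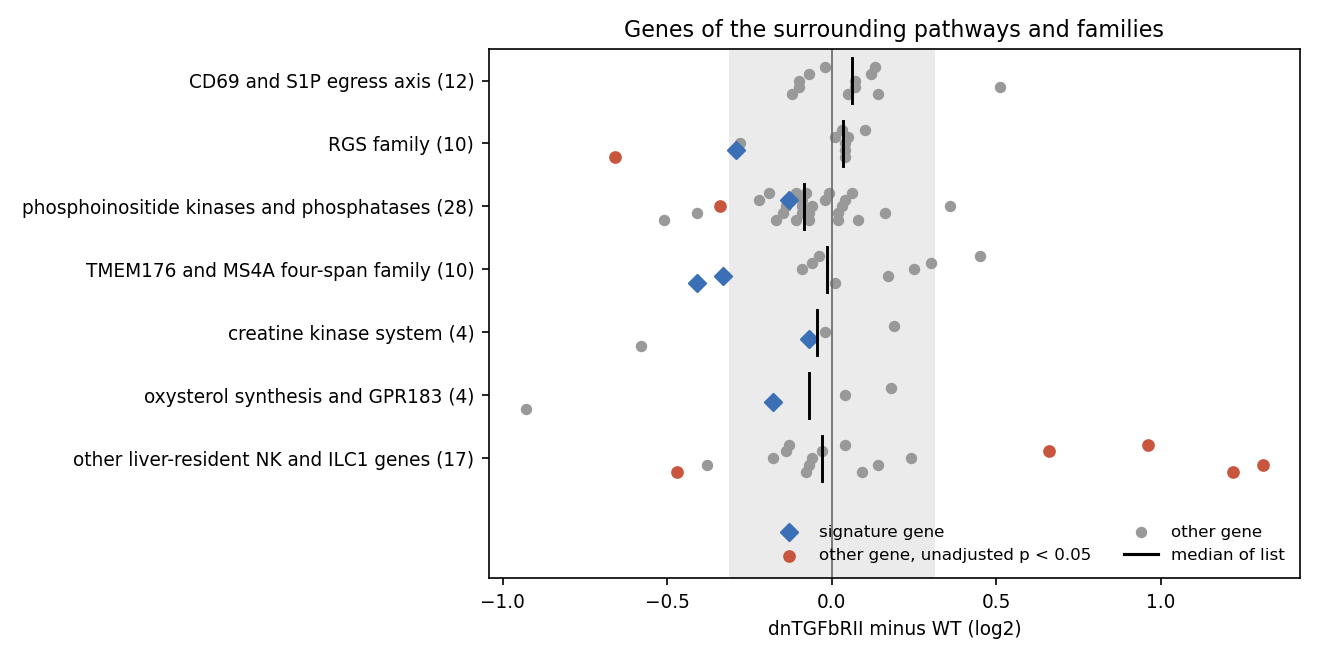
Differences between genotypes (log2) for the tested genes of 7 lists, with the number tested in parentheses, diamonds for signature genes, red points for other genes at an unadjusted p under 0.05, a vertical bar for each list's median and grey for the 5th to 95th percentile of all genes. The list medians lie between -0.08 and 0.06, and the 2 TMEM176 diamonds lie at the lower edge of their family.

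All 7 signature genes had their lowest value on dnTGFbRII replicate 1, an array that held the lowest value of 28.0% of all genes tested. The deviation from a gene's own mean on this array ran from -0.18 for Ckb to -0.76 for Cd69. NK cell markers shared the pattern, with 7 of 8 lowest on the same array. The 8 spike-in control rows, bacterial and phage transcripts added by the laboratory, deviated from their own mean by -0.12 and 0.10 on the WT arrays and by -0.24 and 0.25 on the dnTGFbRII arrays, and so were lowest on the same array too. With every array centred on these controls, 1 of 7 genes was lowest on dnTGFbRII replicate 1, against 3.92% of all genes, so which array is lowest depends on the scaling. The controls hardly differed between the genotype means, so that centring could not turn a difference between genotypes. The genes whose dnTGFbRII arrays lay below both WT arrays were then Cd69, Inpp4b, Tmem176a and Tmem176b, against 6.11% of all genes. Without dnTGFbRII replicate 2, limma gave 3 of 7 genes (Cd69, Tmem176a and Tmem176b) an unadjusted p under 0.05, where 2.17% of all genes were lower at that threshold, and 0 of 7 passed after adjustment. That fit rests on the 1 dnTGFbRII array on which all 7 genes were lowest, and it takes its spread from the WT pair, which the lone array is assumed to share. Without dnTGFbRII replicate 1, 4 of 7 differences were negative, and 52.7% of those of all genes.

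**Figure D4:**
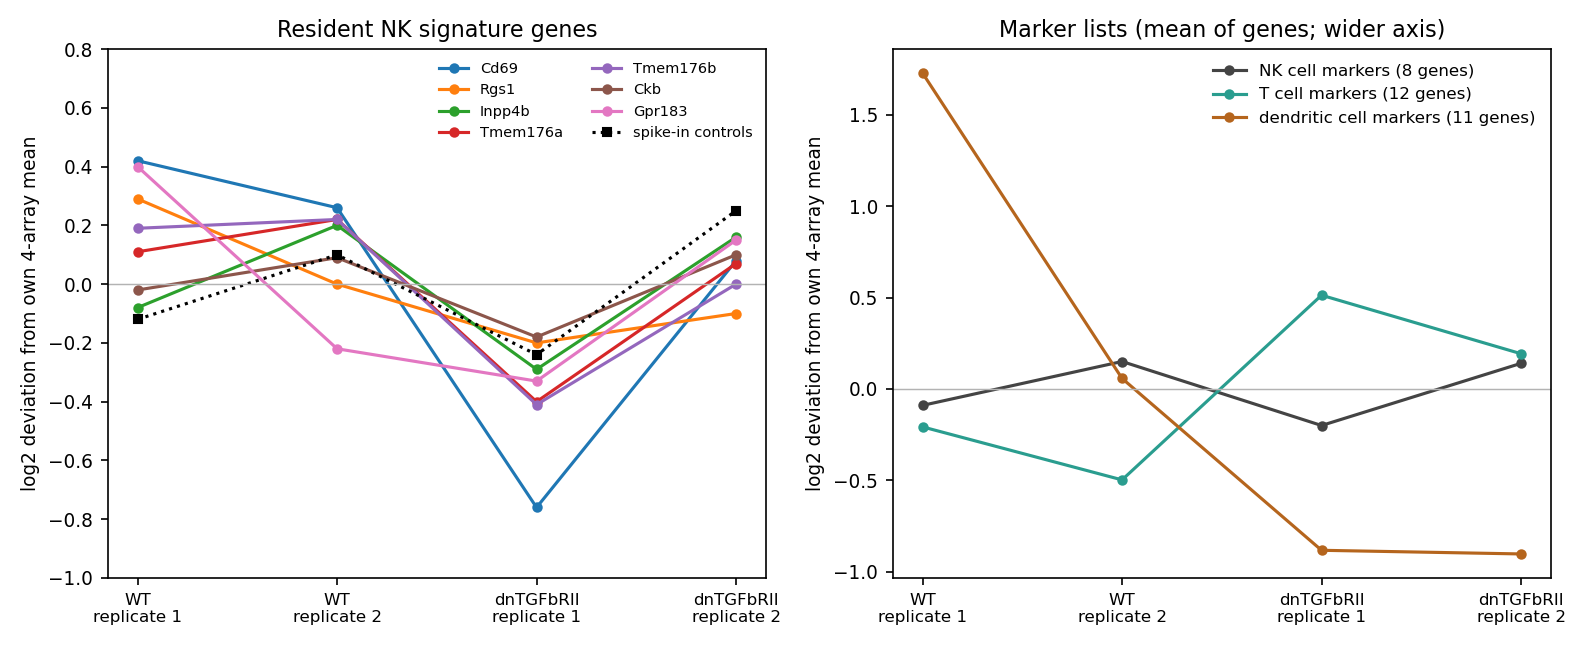
Log2 deviation of each array from a gene's own mean over 4 arrays: left, the 7 signature genes and the mean of 8 spike-in control rows; right, the mean of the NK cell, T cell and dendritic cell marker lists on a wider axis. Lines only join the points of 1 gene or list; the 7 genes are all lowest on dnTGFbRII replicate 1, while dendritic cell markers are lowest on both dnTGFbRII arrays and T cell markers highest on dnTGFbRII replicate 1.

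Dendritic cells and T cells are known to express several of the 7 genes, Tmem176a, Tmem176b and Gpr183 in the former and Cd69 and Rgs1 in both. Of 12 listed dendritic cell markers, 11 had a row of their own and 10 were tested. The mean of the 11 was 9.83 and 8.16 on WT replicates 1 and 2, and 7.22 and 7.20 on the dnTGFbRII arrays. The log2 of their summed level was 16.62 to 17.30 in WT and 15.73 to 16.40 in dnTGFbRII cells. Itgax alone, at 15.61 and 16.32, made up most of the dnTGFbRII sums, and it measured 16.16 and 16.37 in WT cells. All 10 tested were lower in dnTGFbRII cells, with a median of -2.52. Of these, 6 passed an unadjusted p under 0.05, against 1.29% of all genes that were lower at that threshold. They were H2-Aa, H2-Ab1, H2-Eb1, Clec9a, Flt3 and Cd209a, with differences from -2.27 to -3.48. Itgax (-0.30 ± 0.27), Zbtb46 (-0.27 ± 0.28), Siglech (-0.48 ± 0.35) and Batf3 (-0.26 ± 0.34) overlapped between the genotypes. Xcr1 was below the filter. The mean of the list was higher on WT replicate 1 than on WT replicate 2. Of the 7 signature genes Cd69, Rgs1 and Gpr183 were too, and Inpp4b, Tmem176a, Tmem176b and Ckb were higher on WT replicate 2. The 12 T cell markers had a mean of 7.41 and 7.12 in WT and 8.13 and 7.81 in dnTGFbRII cells. The log2 of their summed level was 15.88 to 16.00 in WT and 15.69 to 15.96 in dnTGFbRII cells. Cd3g alone, at 15.90 and 15.81 in WT and 15.47 and 15.34 in dnTGFbRII cells, made up most of that sum. No other gene of the list was above 13.19 on any array, so the sum says little on the rest of the list. Of 10 T cell markers tested, 6 were higher at an unadjusted p under 0.05, against 1.95% of all genes. They ran from Cd3e (2.78 ± 0.68), Cd3d (2.13 ± 0.23) and Cd8a (1.10 ± 0.16) to Cd28, Cd40lg and Cd5. Of these, Cd40lg and Cd5 lay within the span of the background probes on every array. Cd3g was lower at that threshold (-0.45 ± 0.13). Cd6 and Cd8b1 were below the filter.

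Other marker lists had fewer genes tested. Kit, listed for type 2 and type 3 innate lymphoid cells, measured 8.05 and 7.34 in WT and 9.62 and 9.75 in dnTGFbRII cells (1.99 ± 0.27). It was 1 of 2 tested genes of that list higher at an unadjusted p under 0.05, against 1.95% of all genes. The other, Rora, overlapped (0.69 ± 0.67). Among neutrophil markers Ngp was higher on both dnTGFbRII arrays (0.83 ± 0.22). It was 1 of 4 tested that were higher at an unadjusted p under 0.05, against 1.95% of all genes. Its values, from 3.79 to 4.94, lay within the span of the background probes on every array. S100a9 stood at 5.99 on dnTGFbRII replicate 1 and between 4.42 and 4.61 on the other arrays, and Ly6g differed by -0.18 ± 0.14. Of the macrophage and monocyte genes, Cd14 had the largest test statistic (0.23 ± 0.15), at values within the span of the background probes. It was 1 of 7 tested that were higher on both dnTGFbRII arrays, against 12.6% of all genes. Lyz2 measured 10.23 and 8.23 in WT and 9.25 and 11.02 in dnTGFbRII cells. Both Lyz2 and Cd68 (-0.39 ± 0.41), the next of that list, overlapped between the genotypes. The hepatocyte gene Alb measured 6.62 on WT replicate 2 and between 4.49 and 4.79 elsewhere. The B cell genes Cd79a (0.05 ± 0.13) and Cd79b (-0.01 ± 0.15), the endothelial gene Pecam1 (0.25 ± 0.25) and Col1a1 (-0.01 ± 0.13) overlapped between the genotypes. The part of all these cells in the differences of the 7 genes was not tested.

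Other genes of liver-resident NK cells and type 1 innate lymphoid cells did not share one direction. Of 18 listed, 17 were tested, 9 lower and 8 higher in dnTGFbRII cells, with a median of -0.03, and Itga1 has only a row shared with other genes. At an unadjusted p under 0.05, 4 of 17 were higher, against 1.95% of all genes, and 1 was lower, against 1.29%. The higher ones were Il7r (1.31 ± 0.33), Ikzf2 (1.22 ± 0.21), Il2ra (0.96 ± 0.16) and Itgb3 (0.66 ± 0.21). The lower one was Itgae (-0.47 ± 0.18). Itgae, the integrin chain CD103 and a known TGF-beta target, measured 5.01 and 4.66 in WT and 4.28 and 4.46 in dnTGFbRII cells, within the span of the background probes. Tnfsf10, the gene of the death ligand TRAIL, measured 12.84 and 13.22 in WT and 12.53 and 12.77 in dnTGFbRII cells, and like Cd69 its genotypes did not overlap (-0.38 ± 0.19). Cxcr6, the chemokine receptor that holds these cells in the liver sinusoids, overlapped between the genotypes (-0.18 ± 0.25).

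The genes whose centred profile over the 4 arrays lay closest to each signature gene were found among 10518 other tested genes. For Cd69 they were Tcrg-V6, Etv3 and Srebf2, at root mean square distances of 0.080 to 0.101 log2 units against a size of 0.455 for its own profile. For Rgs1 they were an immunoglobulin kappa variable segment, Sh2b2 and Arhgef11, and for Tmem176b Ptpn6, Prkra and Ccnd2. St3gal1, Etnk1 and Fadd were closest to Tmem176a, whose partner Tmem176b ranked 24, and Tmem176a ranked 8 for Tmem176b. For Inpp4b the closest were Ttc17, Vps8 and Hmgxb4, for Ckb Mrpl24, Klc1 and Gnb1, and for Gpr183 Dusp3, Nrros and Dusp18. Among the other signature genes, Tmem176b (rank 31) and Tmem176a (rank 49) came closest to Cd69, followed by Gpr183 (rank 350) and Rgs1 (rank 411). With 4 arrays many genes have near-identical profiles, so this is a description of these arrays.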

How the data were processed

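RNA from sorted DX5-negative liver NK cells was hybridised to 4 arrays. The deposited table holds log2 values made by the authors; the submitters' processing notes name RMA and the Affymetrix Expression Console. Tool versions: not given in the sources used here. The same holds for the genome build, and coordinates are left out. Values were used as deposited.

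Of 72688 rows, 30604 name 1 gene in the platform annotation, 2146 several and 39938 are unlisted. Names were updated through Entrez identifiers to GRCm38.p6 (22818 rows matched). Of several rows for a gene the one with the highest mean was used, and genes above the median row mean (4.217) were tested in R 4.3.3 with limma 3.58.1 (a linear fit with a constant prior, 2 residual and 2.54 prior degrees of freedom, 2-sided, Benjamini-Hochberg over all genes). The script was tested on simulated data. The number of arrays limits the precision. No 2 arrays shared over 0.044% of values.

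The members, the gene lists and the tests were chosen with earlier results of these data known, so no list is independent evidence. List genes are named where the unadjusted p was under 0.05 or the test statistic was among the 3 largest, and for each member the 3 closest profiles are given, with small RNAs and predicted genes passed over. Other list members, chromosomal neighbours and background rows were named after their values were seen. Alternatives were another prior, no or a stricter filter, repeated quantile normalization, median centring, averaged rows, an adjusted p of 0.1, the replicate number as a block, each array left out and, chosen after seeing the data, centring on the spike-in controls.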

Additional observations from a re-analysis of the deposited data

How the results depend on the processing

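Of 11 alternative settings, 5 (filters, prior, block and averaged rows) leave a member's difference as it is, so that they say nothing on its sign. The other 6 gave 42 differences, 28 from left-out arrays and 14 from scalings, of which 5 changed sign, each on leaving out 1 array: Inpp4b was 0.01 without WT replicate 2 and 0.10 without dnTGFbRII replicate 1, Ckb was 0.07 without dnTGFbRII replicate 1, and Gpr183 was 0.13 without WT replicate 1 and 0.06 without dnTGFbRII replicate 1. Over the 4 left-out arrays Inpp4b ran from -0.35 to 0.10, Ckb from -0.21 to 0.07 and Gpr183 from -0.49 to 0.13. Leaving out an array moved the median difference of the 7 between -0.42 and -0.10, the count without overlap between 5 and 7 (from 55.9% to 70.1% of all genes, since 1 array is then set against 2; without dnTGFbRII replicate 1 the 5 include 1 that is higher), the count at an unadjusted p under 0.05 in limma between 0 and 3, and the count of all genes past the adjusted threshold between 0 and 6, the last without WT replicate 2. None of the 7 passed the adjusted threshold under any setting that tested it. Ckb and Gpr183, with means of 6.23 and 4.38, fell below the stricter filter of 6.583 and were not tested there. With the replicate number as a block, 1 of 7 had an unadjusted p under 0.05 (Tmem176b), as did 9.03% of all genes, and adjusted p-values in limma ran from 0.516 to 0.882. Deviations of same-numbered arrays correlated (r = 0.5105 across 16245 genes, which are not independent), but the labels do not say what the number marks, and 2 pairs cannot show that it pairs the arrays. Quantile normalization and median centring kept the sign of all 7 and the 4 genes without overlap. The count of genes lowest on dnTGFbRII replicate 1 was 7 under both of those and 1 with centring on the spike-in controls.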
